A study of Homo sapiens with 3 samples.

Results

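The kinesin motor genes were examined in NCI-H23 cells, an established line from a human adenocarcinoma of the lung, after knockdown of USP16, an enzyme that takes ubiquitin off histone H2A. Members were the genes whose symbol is KIF, a number and at most 1 letter from A to C. This gave 39 of the 50868 genes in the tables: 13 motors of mitosis and cytokinesis, 13 motors of cargo transport, and 13 others that work in cilia, remodel microtubules or are little known. Whole-transcriptome mRNA libraries came from 2 samples of cells transfected with USP16 siRNA (siUSP16 libraries 1 and 2) and from 1 sample of cells transfected with control siRNA. All 3 came from this single cell line. The labels do not say whether the 2 siUSP16 samples are separate cultures or separate siRNAs, so the p-values reflect no more than the variation among these libraries, which could be technical.

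Kinesins are motor proteins that use ATP to move along microtubules or to shorten them. Transport kinesins carry vesicles, organelles and ciliary cargo toward the cell periphery and are made throughout the cell cycle. Mitotic kinesins build the spindle, move chromosomes and organize the midzone at cytokinesis, and their transcripts are best known for peaking in G2 and mitosis. Their promoters are known for CCAAT boxes, bound by NF-Y, and for the cell cycle genes homology region, a short element with the core TTTGAA or TTCGAA near the transcription start.

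The knockdown itself was visible in both libraries. USP16 had 109 and 245 counts in the siUSP16 libraries, against 632 in the control, which is 83.8% and 66.8% lower after scaling. By the quasi-likelihood test of edgeR its p was 0.00142 unadjusted and 0.561 adjusted over all genes. The siUSP16 libraries differed from each other by a chi-square of 62.5 per degree of freedom over 16523 genes, so they were not 1 library deposited again. Of 8 epithelial markers, all were detected and 7 were below the control in both siUSP16 libraries, against 33.5% of all genes tested. The other marker was EPCAM, with 161 and 232 counts in the siUSP16 libraries and 38 in the control. Together they summed to 246 and 376 CPM, counts scaled to a common library total, in the siUSP16 libraries and 423 in the control. Of the 6 lung lineage genes, SFTPA1, SFTPB and SFTPC were at 0 in all libraries. NKX2-1 had 4 and 10 counts in the siUSP16 libraries and 6 in the control. MUC1 had 68 and 48 counts in the siUSP16 libraries and 41 in the control, and NAPSA had 20 and 9, against 20. Together the 6 genes summed to 6.49 and 4.31 CPM in the siUSP16 libraries and 5.03 in the control. Immune markers (5 genes) summed to 11.1 and 8.55 CPM in the siUSP16 libraries, against 5.86 in the control, with CD3E and HLA-DRA at 0. Nearly all of this sum was CD68, with 144 and 130 counts in the siUSP16 libraries and 78 in the control. Endothelial markers (4 genes) stayed at or below 0.772 CPM in each library. Mesenchymal markers (7 genes), led by VIM, summed to 1447 and 588 CPM in the siUSP16 libraries and 1598 in the control.

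The promoters of the mitotic and transport classes differ in these elements, as counted below over all windows found. Shown here are 5 windows as examples, which do not stand for their classes. They are 2 mitotic paralog pairs that differ in their values after knockdown (KIF20B with KIF20A, KIF18A with KIF18B) and KIF5B, the most abundant kinesin. KIF5B is the only transport kinesin whose window holds TTTGAA or TTCGAA. A link between the elements and the values after knockdown was not tested. Each is the RefSeq window of 300 bases on GRCh38.p14, from 250 bases before the start to 50 after it, written 5′ to 3′ on the gene's strand. Capitals mark CCAAT and TTTGAA, which were searched on both strands and appear reversed and complemented where they lie on the other strand, and TTCGAA, which reads alike on both. Adjacent matches are written without a break.
KIF20B, chr10:89701340-89701639, plus strand: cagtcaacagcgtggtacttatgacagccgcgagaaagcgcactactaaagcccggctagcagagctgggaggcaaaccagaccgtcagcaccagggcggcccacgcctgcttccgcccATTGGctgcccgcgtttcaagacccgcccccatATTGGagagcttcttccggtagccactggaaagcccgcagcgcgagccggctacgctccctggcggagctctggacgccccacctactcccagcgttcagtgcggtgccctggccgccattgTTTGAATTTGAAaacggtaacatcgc
KIF20A, chr5:138178862-138179161, plus strand: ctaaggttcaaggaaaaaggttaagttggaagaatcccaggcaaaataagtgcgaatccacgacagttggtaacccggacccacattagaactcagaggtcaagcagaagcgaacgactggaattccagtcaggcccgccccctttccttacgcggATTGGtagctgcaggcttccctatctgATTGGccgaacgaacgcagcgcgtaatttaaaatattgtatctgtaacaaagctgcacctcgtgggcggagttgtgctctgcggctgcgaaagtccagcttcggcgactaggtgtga
KIF18A, chr11:28108107-28108406, minus strand: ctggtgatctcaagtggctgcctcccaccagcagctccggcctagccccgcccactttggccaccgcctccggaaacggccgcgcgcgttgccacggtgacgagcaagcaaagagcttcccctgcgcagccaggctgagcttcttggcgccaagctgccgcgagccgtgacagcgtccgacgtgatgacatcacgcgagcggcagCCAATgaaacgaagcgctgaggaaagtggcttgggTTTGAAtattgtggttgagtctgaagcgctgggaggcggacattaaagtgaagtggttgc
KIF18B, chr17:44947724-44948023, minus strand: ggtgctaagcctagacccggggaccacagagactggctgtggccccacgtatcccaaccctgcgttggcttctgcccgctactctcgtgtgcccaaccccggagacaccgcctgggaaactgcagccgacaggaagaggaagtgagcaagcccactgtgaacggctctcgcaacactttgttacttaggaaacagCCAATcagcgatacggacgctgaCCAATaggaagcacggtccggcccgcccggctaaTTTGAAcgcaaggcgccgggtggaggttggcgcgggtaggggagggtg
KIF5B, chr10:32056376-32056675, minus strand: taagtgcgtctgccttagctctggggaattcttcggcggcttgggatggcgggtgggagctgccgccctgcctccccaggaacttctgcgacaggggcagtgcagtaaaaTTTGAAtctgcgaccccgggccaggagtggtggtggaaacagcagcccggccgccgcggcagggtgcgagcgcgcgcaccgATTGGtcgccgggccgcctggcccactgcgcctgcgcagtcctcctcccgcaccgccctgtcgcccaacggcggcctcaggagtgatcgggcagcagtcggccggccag

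Windows were found for 33 of the 39 kinesins, some of which have several, 42 windows in all. TTTGAA or TTCGAA lay in 11 of 14 mitotic windows (78.6%), in 1 of 16 transport windows (6.25%) and in 1 of 12 windows of the other kinesins (8.33%), against 16.4% of all 35116 RefSeq windows. Windows of 1 gene can overlap, and the 2 windows of KIF22 hold the same TTCGAA. By gene, 10 of 13 mitotic kinesins held a match, 1 of 11 transport kinesins and 1 of 9 others with a window. The transport kinesin was KIF5B, whose TTTGAA begins 140 bases before the start. CCAAT on either strand lay in 71.4% of mitotic windows, 31.2% of transport windows and 34.6% of all windows. KIF20B and KIF20A both held 2 CCAAT copies, 131 and 98 bases before the start in KIF20B and 94 and 67 in KIF20A. KIF20B also held TTTGAA as a direct repeat beginning 24 bases after the start, whereas neither form was found in the KIF20A window. Other forms of the element were not searched, so the KIF20A window is not shown to lack it. KIF18A and KIF18B each held 1 TTTGAA, beginning 10 bases before the start in KIF18A and 2 after it in KIF18B. A match is a description of the letters and not a measured binding site.

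Levels per length, as TPM, which divides each count by the annotated exon length and scales every library to the same sum, placed conventional kinesin first in every library. KIF5B, the main heavy chain for moving mitochondria and vesicles in non-neuronal cells, had 229 and 225 TPM in the siUSP16 libraries and 220 in the control. Next in the control came 6 mitotic motors between 89.7 and 140 TPM, namely KIF2C, KIF22, KIF4A, KIF20A, KIF11 and KIF18B. This set depends on the length used. By the longest transcript, KIF5B stayed first, KIF23 (109 TPM in the control) joined the set and KIF11 (76.1 TPM) left it. Mitotic kinesins made up 58.6% and 53.8% of the summed kinesin level per length in the siUSP16 libraries and 60.0% in the control. Transport kinesins made up 34.5% and 36.7% in the siUSP16 libraries and 32.8% in the control. KIF2B, a microtubule depolymerase of kinetochores, was the only kinesin with 0 counts in all 3 libraries. TPM carries no TMM factor, so differences near 0 such as that of KIF5B can have the other sign on the scaled CPM used below.

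**Figure D1:**
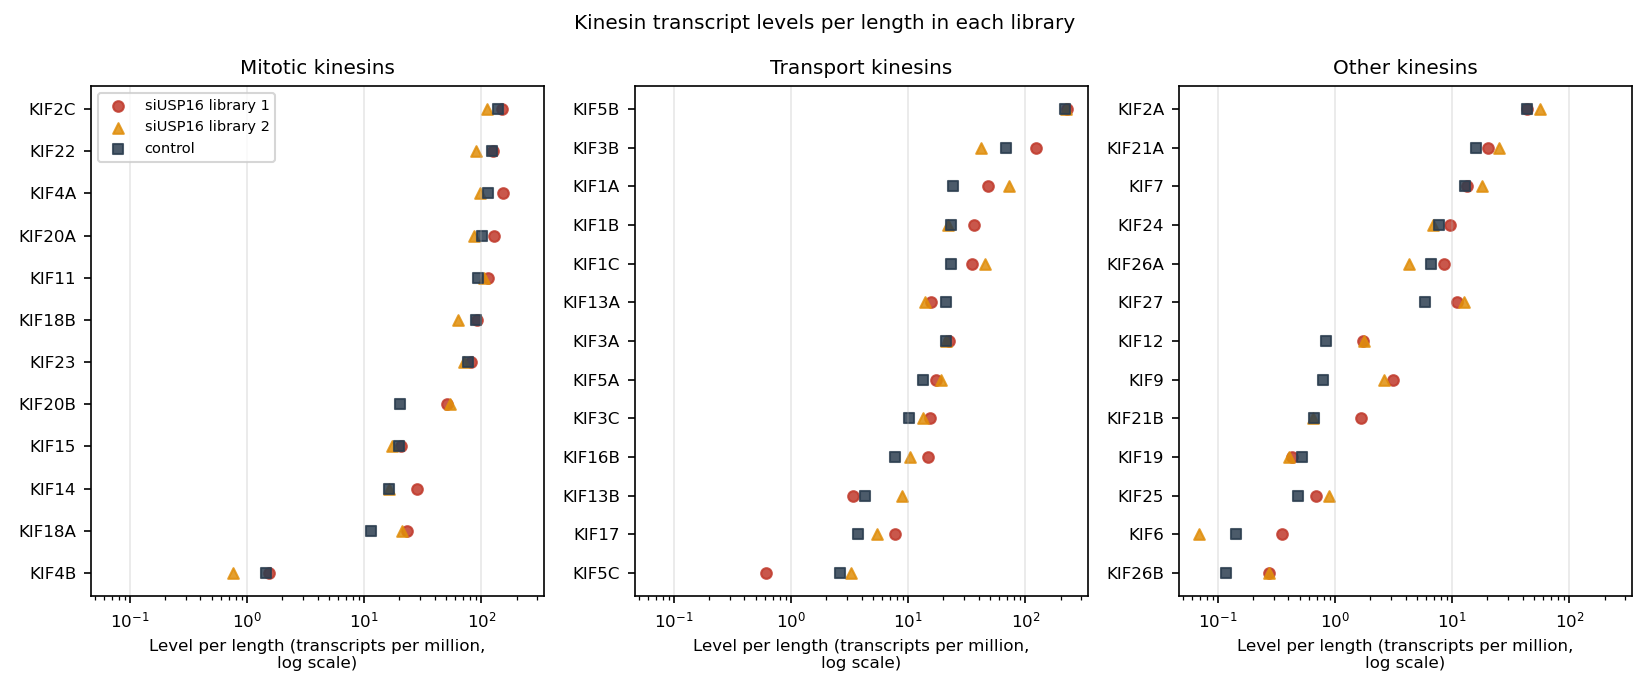
Level per length of 38 kinesins in each library (TPM, log axis), ordered within each class by the control, with KIF2B at 0 left out. KIF5B leads at 220 to 229 TPM. The KIF20B points of both siUSP16 libraries, at 50.4 and 53.9, lie above its control point at 20.3.

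No kinesin passed the test over all genes. By the quasi-likelihood test of edgeR, 0 of the 38 kinesins that passed the filter on low counts had an adjusted p under 0.05 in either direction, where 0% of all 17287 genes were called higher and 0.0174% lower. DESeq2 also called 0. At an unadjusted p under 0.05, edgeR had 3 kinesins, all higher (KIF20B, KIF1A and KIF9), where 2.75% of all genes tested were higher and 2.13% lower at that threshold, and DESeq2 had 2 (KIF20B and KIF1A), where it had 1.82% of the 27554 genes it tested. With the filter on low counts, the lowest edgeR adjusted p among these 38 was 0.986 (KIF20B), and without it 0.557 (KIF1A). At 1 residual degree of freedom such values do not show that a transcript is alike in both conditions.

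By size, 2 kinesins were at least 2-fold higher in both siUSP16 libraries than in the control, KIF20B and KIF9. That is 5.26% of the 38, against 3.75% of all genes tested. None was 2-fold lower in both, against 1.68% of all genes. Both siUSP16 libraries lay above the control for 14 kinesins (36.8%, against 33.4% of all genes) and below it for 10 (26.3%, against 33.5%). These shares are close to those of all genes. KIF6, KIF25 and KIF26B passed the filter only through a siUSP16 library.

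**Figure D2:**
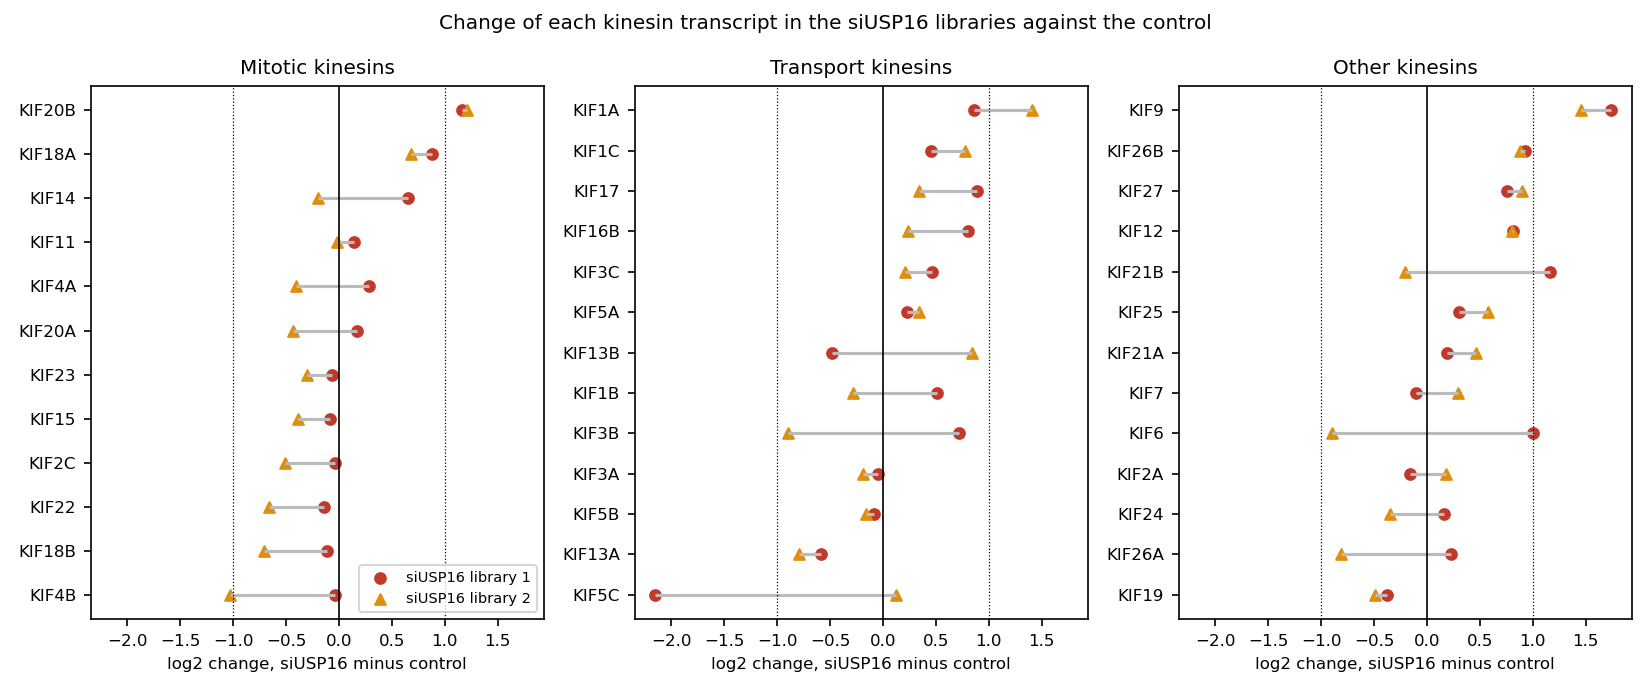
Log2 change (siUSP16 minus control) of 38 kinesins in siUSP16 library 1 (circles) and library 2 (triangles), joined by a line, with dotted lines at 2-fold. KIF20B and KIF9 are the kinesins with both points beyond the upper dotted line, and the points of KIF3B lie on opposite sides of 0.

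Among the mitotic kinesins, KIF20B stood highest. KIF20B (MPP1), on chromosome 10 at positions 89701610 to 89774939 of hg38, is a motor of the spindle midzone needed to complete cytokinesis. It had 1581 and 1796 counts in the siUSP16 libraries and 662 in the control. Both siUSP16 values were above the control by more than they differed from each other. On the scaled level these are 112 CPM (exact Poisson 95% interval 106 to 117) and 115 CPM (110 to 121) in the siUSP16 libraries, and 49.7 CPM (46.0 to 53.7) in the control. The intervals cover counting error only. KIF20B was 2.24-fold and 2.32-fold higher than in the control, and the log2 changes averaged 1.19 ± 0.04 (SD, n = 2), an SD that holds no variation of the control. Its edgeR p was 0.0177 unadjusted and 0.986 adjusted over all genes, and the adjusted p ranged from 0.654 without a filter on low counts to 1.00 in the other alternatives. No exon of KIF20B overlaps another annotated gene. Its paralog KIF20A (MKLP2), which carries the chromosomal passenger complex to the midzone, had 2302 and 1666 counts in the siUSP16 libraries and 1923 in the control, so the groups overlapped. Exons of KIF20A share 132 bases with BRD8 and 68 with CDC23 on the opposite strand. BRD8 had 1908 and 2189 counts in the siUSP16 libraries and 1784 in the control, and CDC23 had 1835 and 1239, against 1869. Per length, KIF20B stood at 0.397 and 0.623 of the KIF20A level in the siUSP16 libraries and at 0.199 in the control.

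KIF18A, which caps the plus ends of kinetochore microtubules and damps chromosome movements, was the other mitotic kinesin above the control in both libraries. It had 498 and 476 counts in the siUSP16 libraries and 253 in the control, log2 changes of 0.88 and 0.68 (edgeR, unadjusted p = 0.107). Its exons share 61 bases with METTL15 on the opposite strand, which had 113 and 244 counts in the siUSP16 libraries and 63 in the control. Its paralog KIF18B, which limits the length of astral microtubules, had 1951 and 1417 counts in the siUSP16 libraries and 1983 in the control (-0.11 and -0.71). The KIF18A level per length was 0.255 and 0.335 of that of KIF18B in the siUSP16 libraries and 0.127 in the control.

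The remaining mitotic kinesins were at or below the control in siUSP16 library 2. KIF11 (Eg5), which pushes the spindle poles apart, had 2556 and 2508 counts in the siUSP16 libraries and 2179 in the control (0.14 and -0.02). KIF15, which can stand in for KIF11 in keeping the spindle bipolar, had 502 and 446 counts in the siUSP16 libraries and 500 in the control (-0.08 and -0.39). Both spindle motors differed by less than 0.4 in either library on the log2 scale. KIF2C (MCAK), a depolymerase that corrects wrong kinetochore attachments, had 2506 and 1988 counts in the siUSP16 libraries and 2425 in the control (-0.04 and -0.51). KIF22 (Kid), a chromosome arm motor, had 2458 and 1878 counts in the siUSP16 libraries and 2545 in the control (-0.14 and -0.66). In both genes library 2 was the lower of the pair. KIF4A, a chromokinesin that sets midzone length, had 3181 and 2152 counts in the siUSP16 libraries and 2448 in the control (0.29 and -0.41). KIF23 (MKLP1), the motor of centralspindlin, had 2438 and 2273 counts in the siUSP16 libraries and 2396 in the control (-0.07 and -0.30). KIF14, which acts with citron kinase in cytokinesis, had 945 and 572 counts in the siUSP16 libraries and 564 in the control (0.65 and -0.20). For KIF4A and KIF14 the control lay between the siUSP16 libraries on the scaled level. KIF4B, an intronless copy of KIF4A, had 31 and 16 counts in the siUSP16 libraries and 30 in the control. It shares 14.0% of its 50-base words with KIF4A, so its few reads are uncertain.

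As a class, the mitotic kinesins had median log2 changes of 0.05 in siUSP16 library 1 and -0.40 in library 2, over the 12 tested. The medians of all genes tested were 0.00 in both libraries. Above the control in both libraries were 2 of the 12 (16.7%, against 33.4% of all genes tested). Below it in both were 6 (50%, against 33.5%). The summed level of the class was 1478 CPM (1458 to 1498) and 1105 CPM (1089 to 1122) in the siUSP16 libraries. In the control it was 1345 CPM (1325 to 1365), so the control lay between them. Proliferation markers had the same order of libraries. The 14 genes summed to 3531 and 2724 CPM in the siUSP16 libraries and 3036 in the control, none at 0. Of the 14, 5 were above the control in both libraries and 3 below it in both, against 33.4% and 33.5% of all genes tested. Their largest mean changes were those of FOXM1 (1.13 and 0.18), CENPF (1.01 and 0.21) and CCNA2 (-0.12 and -1.04). The part of proliferation in the mitotic kinesin values was not tested. In bulk RNA, fewer cells in a phase of the cycle and less RNA per cell cannot be told apart.

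**Figure D3:**
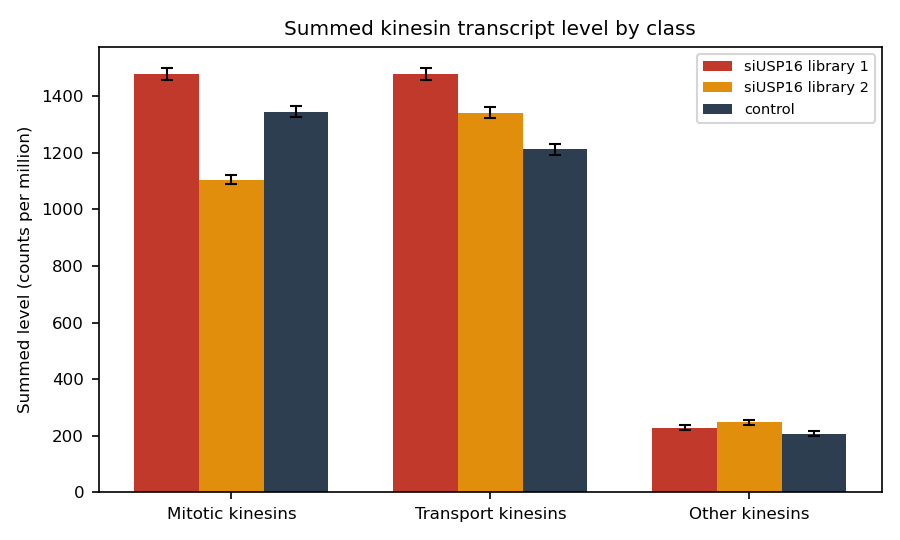
Summed scaled level of each kinesin class (CPM) in siUSP16 library 1, siUSP16 library 2 and the control, with exact Poisson 95% intervals that cover counting error only. For the mitotic class the control, at 1345, lies between the siUSP16 libraries, at 1478 and 1105. For the transport class both siUSP16 libraries lie above the control.

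Kinesins whose symbols fall outside the pattern, and partners of the mitotic kinesins, were measured in the same libraries. CENPE, the motor that carries chromosomes to the spindle equator, had 1298 and 1430 counts in the siUSP16 libraries and 472 in the control (1.37 in each library, edgeR adjusted p = 0.863). KIFC1, a minus-end motor that focuses spindle poles, was at -0.21 and -0.64, KIFC2 at 0.01 and -0.51, and KIFC3, a minus-end motor of epithelial junctions, at 0.36 and 0.27. Of 17 spindle and midzone partners, 0 were called. Above the control in both libraries were 3 and below it in both 8, against 33.4% and 33.5% of all genes tested. The partners had medians of -0.02 and -0.16. Their largest mean changes were those of AURKA (-0.77 and -1.04), a kinase of the spindle poles, RACGAP1 (-0.43 and -0.82), the partner of KIF23 in centralspindlin, and PLK1 (-0.17 and -0.92).

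Among the transport kinesins, KIF1A was highest. KIF1A, on chromosome 2 at positions 240713761 to 240821036 of hg38, carries synaptic vesicle precursors and dense core vesicles in neurons. It had 3663 and 5862 counts in the siUSP16 libraries and 1896 in the control. Both siUSP16 libraries were above the control, and they also differed from each other. It was 1.81-fold (exact binomial 95% interval 1.72 to 1.92) and 2.65-fold (2.51 to 2.79) higher, a mean log2 change of 1.13 ± 0.39 (SD, n = 2), with an edgeR p of 0.0193 unadjusted and 0.999 adjusted over all genes. Neuronal and neuroendocrine markers summed to 176 and 396 CPM in the siUSP16 libraries and 170 in the control. Of these 11 genes, 6 were tested, and the defining factor INSM1 was at 0 in all libraries. Above the control in both libraries were 3 and below it in both 1, against 33.4% and 33.5% of all genes tested. CHGB, a dense core vesicle protein, had 1663 and 5103 counts in the siUSP16 libraries and 1509 in the control. The part of these markers in the KIF1A value was not tested.

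The relatives of KIF1A were less uniform. KIF1C, which moves vesicles and integrins in many cell types, had 1383 and 1892 counts in the siUSP16 libraries and 949 in the control (0.45 and 0.77). KIF1B, a carrier of mitochondria and synaptic vesicle precursors, had 2976 and 1883 counts in the siUSP16 libraries and 1960 in the control (0.51 and -0.28). Per length, KIF1A stood at 1.31 and 3.30 times the KIF1B level in the siUSP16 libraries and at 1.03 times in the control.

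The heavy chains of conventional kinesin differed in abundance and in their values. KIF5B had 6149 and 6414 counts in the siUSP16 libraries and 6148 in the control (-0.09 and -0.16). KIF5A, a neuronal heavy chain, had 494 and 585 counts in the siUSP16 libraries and 396 in the control (0.23 and 0.34). KIF5C, the other heavy chain enriched in neurons, had 26 and 146 counts in the siUSP16 libraries and 115 in the control, so that library 1 alone stood far below the other samples (-2.15 and 0.12). Of the 23 genes measured from a list of kinesin light chains and cargo adaptors, 0 were called. Above the control in both libraries were 8 and below it in both 6, against 33.4% and 33.5% of all genes tested. The list had medians of 0.03 and 0.12. RAB3GAP1, on that list although it is a Rab GTPase regulator and not a known kinesin adaptor, had values of 0.84 and 0.82. RHOT1 had values of -0.42 and -0.86.

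The heterotrimeric kinesin, whose motors KIF3A and KIF3B pair to drive transport in cilia and vesicle traffic, had unlike values for its partners. KIF3A had 703 and 699 counts in the siUSP16 libraries and 683 in the control (-0.05 and -0.19). KIF3B had 3462 and 1239 counts in the siUSP16 libraries and 1976 in the control, above it in library 1 and below it in library 2 (0.72 and -0.90). The level per length of KIF3B was therefore 5.54 and 1.99 times that of KIF3A in the siUSP16 libraries and 3.25 times in the control. KIF3C, an alternative partner of KIF3A, had 451 and 415 counts in the siUSP16 libraries and 307 in the control (0.46 and 0.21), and their accessory subunit KIFAP3 was at 0.06 and 0.44. No test of library 1 against library 2 was made, as each stands alone.

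Endosomal and vesicle motors went both ways. KIF13A, which carries recycling endosomes, had 791 and 749 counts in the siUSP16 libraries and 1117 in the control (-0.59 and -0.80, edgeR unadjusted p = 0.120). This was the lowest transport kinesin with both libraries on the same side. Its paralog KIF13B had 173 and 478 counts in the siUSP16 libraries and 228 in the control (-0.48 and 0.84). KIF16B, a motor of early endosomes, had 523 and 388 counts in the siUSP16 libraries and 281 in the control (0.80 and 0.24). KIF17, a dendritic and ciliary motor, had 157 and 117 counts in the siUSP16 libraries and 79 in the control (0.89 and 0.34).

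Over the class, the 13 transport kinesins had median log2 changes of 0.45 and 0.21. Of these, 6 were above the control in both libraries, 3 below it in both and 4 on either side, which is 46.2% above and 23.1% below, against 33.4% and 33.5% of all genes tested. Their summed level was 1478 CPM (1458 to 1498) and 1342 CPM (1323 to 1360) in the siUSP16 libraries and 1212 CPM (1193 to 1231) in the control. The median of the mitotic class was lower than that of the transport class by 0.40 in library 1 and by 0.61 in library 2. These medians are descriptions of 3 libraries, and the libraries share their control. Cytoplasmic dynein and dynactin, which move cargo the opposite way, had medians of 0.04 and 0.18 over 26 genes tested, with 0 called. Of the 26, 10 were above the control in both libraries and 5 below it in both, against 33.4% and 33.5% of all genes. Among those with a mean of at least 100 counts, the dynein adaptor BICD2 had the largest mean change (1.22 and 1.46), followed by the ciliary dynein heavy chain DYNC2H1 (0.42 and 1.06) and the dynactin subunit DCTN3 (-0.10 and -0.86). Below that minimum, the dynein intermediate chain DYNC1I1 had 7 and 53 counts in the siUSP16 libraries and 7 in the control. Of 13 tubulins, 0 were called. Above the control in both libraries were 3 and below it in both 8, against the same 33.4% and 33.5% of all genes. The largest mean changes were those of TUBB6 (-0.85 and -0.78), TUBB4B (-0.76 and -0.85) and TUBA1B (-0.17 and -1.13). Reads of tubulin genes can be split among close copies, which leaves each one's value uncertain.

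Among the other kinesins, KIF9 showed the largest value at low counts. KIF9, a motor of motile cilia and flagella on chromosome 3, had 83 and 74 counts in the siUSP16 libraries and 22 in the control, 3.54-fold (2.19 to 5.96) and 2.88-fold (1.77 to 4.87) higher (edgeR, unadjusted p = 0.0301). Its exons share 870 bases with the antisense gene KIF9-AS1 and 178 with KLHL18, and without strand information their reads cannot be told apart. KIF9-AS1 had 30 and 25 counts in the siUSP16 libraries and 27 in the control, and KLHL18 had 594 and 512 in the siUSP16 libraries and 417 in the control. KIF27, a ciliary kinesin related to the Hedgehog regulator KIF7, had 258 and 313 counts in the siUSP16 libraries and 143 in the control (0.75 and 0.90). KIF7, which organizes the tip of the primary cilium, had 305 and 440 counts in the siUSP16 libraries and 308 in the control (-0.10 and 0.29). Its exons share 589 bases with TICRR on the opposite strand, which had 1007 and 1252 counts in the siUSP16 libraries and 1239 in the control. KIF24, which restrains cilium assembly, had 269 and 206 counts in the siUSP16 libraries and 226 in the control (0.16 and -0.35). Its exons share 143 bases with UBAP1 on the opposite strand, which had 661 and 954 counts in the siUSP16 libraries and 658 in the control.

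Other members of this class bind or remodel microtubules. KIF2A, a depolymerase relative of KIF2C, had 949 and 1313 counts in the siUSP16 libraries and 995 in the control (-0.16 and 0.18), and its exons share 428 bases with IPO11 on the same strand. KIF21A, which restrains microtubule growth, had 938 and 1246 counts in the siUSP16 libraries and 773 in the control (0.19 and 0.46). KIF26A, an atypical kinesin that binds microtubules without moving, had 265 and 140 counts in the siUSP16 libraries and 212 in the control (0.23 and -0.81). KIF6, KIF12, KIF19, KIF21B, KIF25 and KIF26B had between 4 and 93 counts in each library, and among them KIF12, KIF25 and KIF26B were above the control in both siUSP16 libraries and KIF19 below it in both. KIF25 overlaps the antisense gene KIF25-AS1 by 207 exon bases. Over the class, 6 of 13 were above the control in both libraries (46.2%, against 33.4% of all genes tested) and 1 below it in both (7.69%, against 33.5%). The 6 include KIF25 and KIF26B, which passed the filter only through siUSP16 libraries, so the count is a description. The class had medians of 0.31 (the value of KIF25, with 11 counts in siUSP16 library 1 and 8 in the control) and 0.29, and a summed level of 229 and 247 CPM in the siUSP16 libraries and 208 in the control.

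Base composition differed with the change in opposite ways in the mitotic and transport classes. Across the 12 mitotic kinesins tested, the mean log2 change ran against the GC content of the longest transcript (Spearman rho = -0.80), from KIF20B at 34.2% GC and KIF18A at 37.0% to KIF18B at 58.4% and KIF22 at 58.9%. Across the 13 transport kinesins the mean change and GC content ran together (rho = 0.78), with KIF1A at 61.3% and KIF17 at 63.2% GC. In siUSP16 libraries 1 and 2 taken singly, rho was 0.57 and 0.60 for the transport class. For the mitotic class it was -0.74 and -0.87. With the mean change, rho was -0.20 for the 13 other kinesins, 0.04 for all 38 kinesins tested, and -0.16 for all genes tested with a value. Of the 4 kinesins outside the pattern, CENPE had 35.3% GC (mean log2 change 1.37), KIFC1 57.9% (-0.43), KIFC3 64.3% (0.31) and KIFC2 68.1% (-0.25). These are descriptions across genes, which are not independent replicates and share the same 3 libraries. The part of base composition in the values was not tested.

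**Figure D4:**
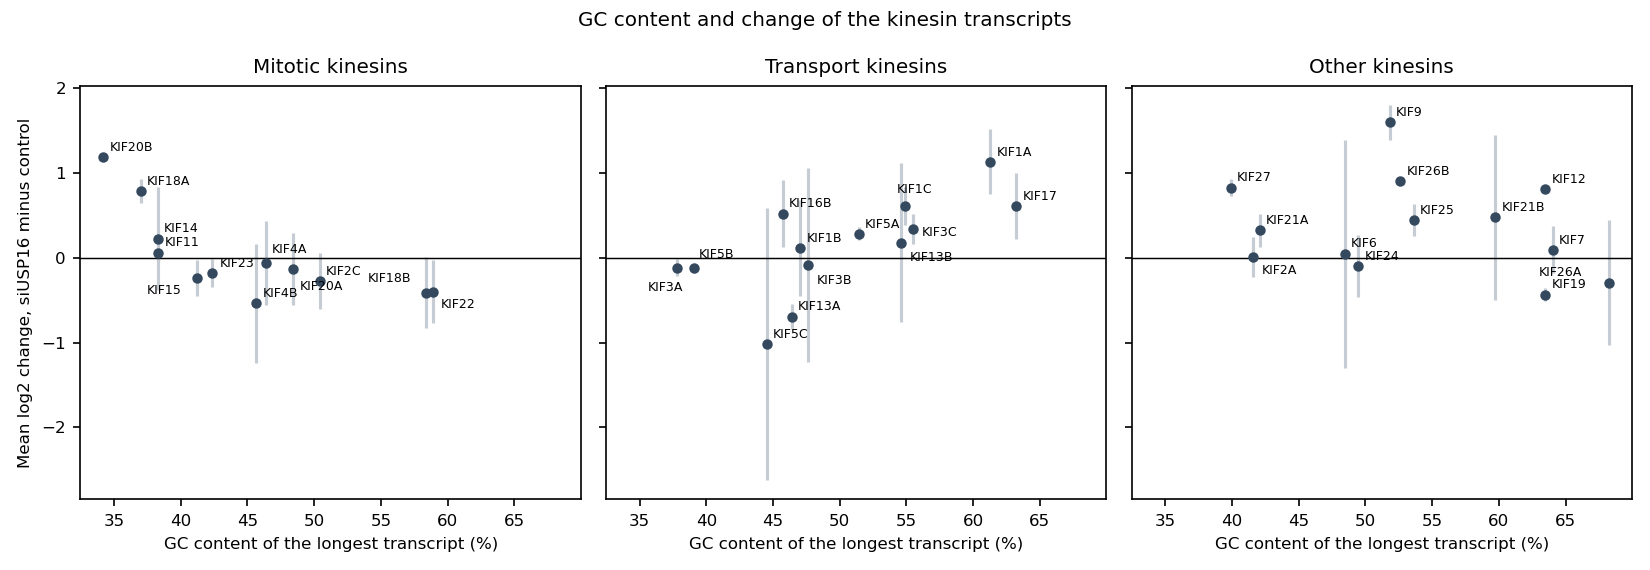
Mean log2 change (siUSP16 minus control) against the GC content of the longest transcript (percent) for the 38 kinesins tested, by class, with bars of 1 SD over the 2 siUSP16 libraries. In the mitotic panel the points descend from KIF20B at 34.2% GC, and in the transport panel the highest point is KIF1A at 61.3% GC.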

How the data were processed

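The authors deposited raw read counts for 50868 genes, as whole numbers that were not normalized. Per the submitters' processing notes, HISAT2 2.0.4 and StringTie 1.3.0 were used with build hg38. How reads were counted, whether strand was used and which annotation served is not given in the sources used here. The libraries held 13956382 and 15071179 counts (siUSP16) and 14007161 (control). The column of siUSP16 library 2 carries the number 6 in its header, and the file was used as labelled.

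Genes were filtered with filterByExpr (17287 kept), scaled with TMM factors and tested by quasi-likelihood in edgeR 4.0.16 (R 4.3.3). P-values were adjusted by Benjamini-Hochberg over all genes tested, with a threshold of 0.05. Residual degrees of freedom numbered 1, which takes the lone control to be as variable as the siUSP16 pair. The test was checked on simulated counts. Log2 changes are log2 CPM differences with a prior count of 2. DESeq2 1.42.0, other filters, scalings and prior counts, and leaving out each siUSP16 library were alternatives. Positions, lengths and overlaps came from GENCODE release 29, on the same build, which matched 50111 (98.5%) of the identifiers. Promoters came from RefSeq on GRCh38.p14.

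The members, classes and lists were chosen with earlier results of these data known. By rule, every kinesin was named, with values for those with a mean of at least 100 counts or 2-fold in both libraries, and up to 3 members of each accompanying list by size of change. Some genes of these lists are not reported here.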

Additional observations from a re-analysis of the deposited data

How the results depend on the processing

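No paired analysis was possible because the control is a single library. The count of kinesins at least 2-fold higher in both siUSP16 libraries was 2 in the main analysis. It was 1 with a minimum mean of 100 counts and 1 on the log2(CPM + 5) scale. It was also 1 without the 16 kinesins whose exons overlap another annotated gene, not all of which are named above for this. KIF20B remained in each case and KIF9 did not. With either siUSP16 library left out, 3 were 2-fold higher and 1 was 2-fold lower (KIF4B in library 2, KIF5C in library 1). The count of called kinesins was 0 with no filter, with size factors by median ratio, with a minimum mean of 100 counts and in DESeq2. With a siUSP16 library left out no test could be fitted, as no residual degrees of freedom remain. The transport median was 0.18 over the mean changes and ranged from 0.21 to 0.45 with a siUSP16 library left out. The median of the other kinesins, 0.33, was 0.090 with a minimum mean of 100 counts, 0.27 with a prior count of 10, 0.079 on the log2(CPM + 5) scale, 0.27 with KIF2A, KIF21A and KIF21B reassigned, and 0.29 to 0.31 with a library left out. The cause was not tested. The mitotic median, -0.16, was -0.40 without library 1 and 0.05 without library 2, and the mitotic summed level, -0.07 on the log2 scale, was -0.28 and 0.14, so the sign of both rests on which library is kept. The alternatives for the summed class levels were chosen after seeing the data. Leaving out library 1 changed the sign of the mean change of 6 of 38 kinesins, and leaving out library 2 that of 8. The lone control limits every comparison, and counting error alone is wide for members under 30 counts.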
